A study of Mus musculus with 25 samples.

Results

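The genes examined were 9 genes of hepatic insulin signalling, chosen by name from the textbook pathway: Insr, Irs1, Irs2, Pik3r1, Pik3ca, Akt1, Akt2, Foxo1 and Igfbp1. They are 9 of the 41388 gene features in the count tables, and all 9 were among the 14065 genes that passed the filter on low counts and were tested. Liver RNA from 25 male mice on the C57B/6J background, 20 weeks old per the labels, was sequenced after poly-A selection, with 1 library per mouse and 20166175 to 32937326 gene counts per library. The mice were Sirt1 LoxP/LoxP littermates without Cre (WT) or with Albumin-Cre, which acts in hepatocytes (SIRT1 LKO, a liver-specific knockout), and all of them received an AAV8 virus at about 8 weeks of age. The virus carried an empty vector (EV) or NAMPT, the enzyme that makes nicotinamide mononucleotide for NAD synthesis, under a hepatocyte promoter. The 5 groups were chow-fed WT x AAV8-EV (chow WT EV, n = 3), Western diet-fed WT x AAV8-EV (WD WT EV, n = 6), Western diet-fed WT x AAV8-NAMPT (WD WT NAMPT, n = 6), Western diet-fed SIRT1 LKO x AAV8-EV (WD LKO EV, n = 5) and Western diet-fed SIRT1 LKO x AAV8-NAMPT (WD LKO NAMPT, n = 5), with 12 weeks on the diet. There was no chow-fed group with NAMPT or with the LKO genotype.

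In hepatocytes, insulin binds its receptor tyrosine kinase, which phosphorylates the IRS adaptor proteins. These recruit phosphatidylinositol 3-kinase, whose lipid product brings the kinase AKT to the membrane, and AKT phosphorylates targets that include the transcription factor FOXO1, which then leaves the nucleus. In the fasted liver FOXO1 is active and drives genes such as Irs2, Igfbp1 and those of gluconeogenesis, while in the fed liver insulin lowers them and raises lipogenic genes such as Srebf1. The measurements are of RNA only, so the phosphorylation through which the pathway mainly works was not seen.

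The identity of the tissue and the genotype was checked first. All 5 hepatocyte markers examined were present in every group, with a summed level of 43810 to 73250 CPM (counts scaled to a common library size) in the single libraries. Sirt1, the gene labelled as deleted, was not lower in the libraries labelled LKO, which with EV had a mean of 8.57 CPM (SD 1.34) where WT had 8.86 CPM (SD 0.57). With NAMPT the libraries labelled LKO had 9.82 CPM (SD 1.36) and WT 8.58 CPM (SD 0.62). A count over the whole gene includes exons outside a deleted part, so this neither checks nor refutes the labels, and every genotype difference given here rests on the labels. The mean Nampt level was 47.4 CPM in WD WT EV and 59.5 CPM in WD WT NAMPT, and 56.1 and 79.9 CPM in the libraries labelled LKO with EV and with NAMPT. Neither difference was called (adjusted p = 0.144 and 0.403). Bulk tissue was sequenced, so for every gene below, fewer cells of a type and less RNA per cell cannot be told apart.

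Per exonic length, the most abundant of the 9 transcripts over all 25 libraries was Igfbp1, which encodes a secreted protein that binds insulin-like growth factors, at a mean of 24.98 RPKM (TMM-normalized CPM per kilobase of exon). Its position was not stable, since it stood above Insr in only 14 of 25 libraries. The insulin receptor gene Insr averaged 17.4 RPKM, and the kinase genes Akt2 and Akt1 averaged 13.8 and 11.7 RPKM, with Pik3r1 between them at 12.3 RPKM. Foxo1 followed at 7.90 RPKM. The adaptor genes Irs1 and Irs2 averaged 4.60 and 4.41 RPKM, on either side of Pik3ca at 4.57 RPKM, and these 3 did not keep their order, since Irs1 exceeded Pik3ca in 14 of 25 libraries and Pik3ca exceeded Irs2 in 16 of 25. The spread between libraries ran in another order than the level. The coefficient of variation of CPM over all libraries was 69.8% for Igfbp1 and 41.7% for Irs2, between 12.3% and 21.6% for Irs1, Foxo1, Pik3r1, Insr, Akt1 and Pik3ca, and 5.83% for Akt2.

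The 9 genes lie on 7 chromosomes (GRCm38). Insr (ENSMUSG00000005534) is on chromosome 8 from 3150922 to 3279617, and Irs2 (ENSMUSG00000038894) on the same chromosome from 10986980 to 11008458. Foxo1 (ENSMUSG00000044167, from 52268337 to 52350109) and Pik3ca (ENSMUSG00000027665, from 32397671 to 32468486) share chromosome 3. Irs1 (ENSMUSG00000055980) spans 82233101 to 82291416 on chromosome 1, Akt2 (ENSMUSG00000004056) 27591552 to 27640826 on chromosome 7 and Igfbp1 (ENSMUSG00000020429) 7197782 to 7202546 on chromosome 11. Akt1 (ENSMUSG00000001729) spans 112653821 to 112674884 on chromosome 12 and Pik3r1 (ENSMUSG00000041417) 101680563 to 101768217 on chromosome 13. Genes on the other strand overlap 2822 of the 9144 exonic bases of Irs1, 674 of the 5552 of Foxo1 and 162 of the 4024 of Irs2. Whether counting used the strand is not given in the sources used here, so reads of these genes and their partners cannot be told apart there.

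The promoters of Igfbp1, Irs2 and Irs1 are shown because the first had the widest spread of the 9 genes, the second the largest change with diet, and the third is the other main IRS adaptor gene. Each sequence is the 250 bases before the RefSeq gene start (GRCm38.p6), read 5′ to 3′ on the gene's strand. Capitals mark CAAAACA, the core letters of an insulin response element, or CACGTG, the E-box that clock and other basic helix-loop-helix factors bind. Both strands were searched, so CAAAACA also appears as TGTTTTG, and the FOXO core GTAAACA was searched the same way.
Igfbp1, chr11:7197537-7197786, plus strand: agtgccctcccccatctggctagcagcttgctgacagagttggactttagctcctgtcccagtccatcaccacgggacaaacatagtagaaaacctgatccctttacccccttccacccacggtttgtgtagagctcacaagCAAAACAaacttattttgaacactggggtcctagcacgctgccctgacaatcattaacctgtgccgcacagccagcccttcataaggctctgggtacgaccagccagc
Irs2, chr8:11008930-11009179, minus strand: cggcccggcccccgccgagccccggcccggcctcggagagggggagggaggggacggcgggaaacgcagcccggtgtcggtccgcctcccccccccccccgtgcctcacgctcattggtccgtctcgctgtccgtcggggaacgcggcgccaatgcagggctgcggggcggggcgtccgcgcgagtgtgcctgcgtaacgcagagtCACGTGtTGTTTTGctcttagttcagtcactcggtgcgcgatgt
Irs1, chr1:82291440-82291689, minus strand: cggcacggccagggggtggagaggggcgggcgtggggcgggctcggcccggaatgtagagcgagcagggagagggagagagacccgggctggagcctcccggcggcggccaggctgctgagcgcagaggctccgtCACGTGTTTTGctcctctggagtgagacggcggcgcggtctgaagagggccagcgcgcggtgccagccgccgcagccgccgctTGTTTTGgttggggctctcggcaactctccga
Igfbp1 held CAAAACA from 108 to 102 bases before its start. Irs2 held TGTTTTG from 37 to 31 and CACGTG from 44 to 39 bases before its start, with 1 base between them. Irs1 held TGTTTTG from 111 to 105 and from 32 to 26 bases before its start, the first sharing 2 bases with a CACGTG from 115 to 110. Of the 32851 RefSeq promoters of this length, 5.56% held CAAAACA on either strand, 3.17% GTAAACA and 6.02% CACGTG, while CAAAACA and CACGTG stood together in 97 promoters or 0.295%. RefSeq entries matched 8 of the 9 genes, with 13 promoters, and no entry for Insr was in the table used. The one further match of these motifs was TGTTTAC from 161 to 155 bases before the first Akt1 start.

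**Figure D1:**
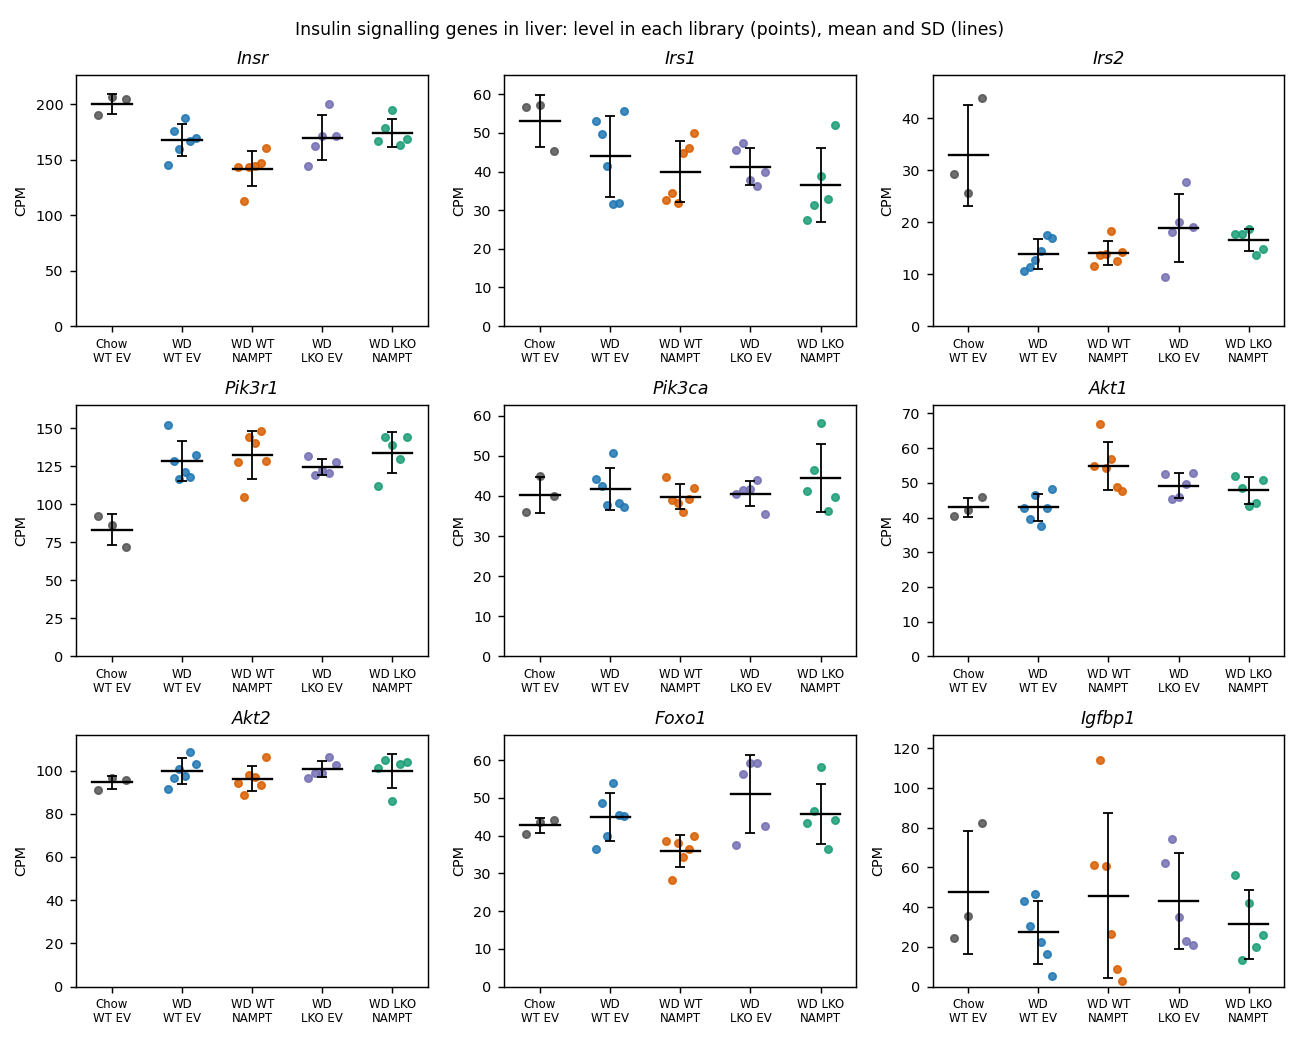
TMM-normalized CPM of the 9 insulin signalling genes, 1 panel per gene and 1 point per library, with the mean and SD of each of the 5 groups. Irs2 was 25.6 to 43.9 CPM in the 3 chow libraries, above 21 of the 22 WD libraries, Pik3r1 was lowest there (71.8 to 92.1 CPM), and Igfbp1 spread from 2.96 to 114 CPM within WD WT NAMPT alone.

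Diet was examined in WT mice with the empty vector. Irs2 and Insr fell and Pik3r1 rose with Western diet feeding, while the other 6 genes were not called. A gene was called at a Benjamini-Hochberg adjusted p of 0.05 or less over all 14065 genes in the limma fit, and 22% of all genes were called in this comparison. That share was 6.89% without chow replicate 1 and 5.95% without chow replicate 2, and 17.8% to 22.6% without any other library of the comparison. In 3 of the 9 genes (Irs2, Pik3r1 and Insr) the chow and WD WT EV libraries did not overlap, against 16.1% of all genes. The median log2 difference was 0.0037 over the 9 genes and -0.0047 over all genes, with 5 of the 9 differences positive.

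Irs2, the adaptor that FOXO1 drives in the fasted liver, had 29.2, 25.6 and 43.9 CPM in the 3 chow libraries and 10.6 to 17.6 CPM (median 13.6) in the 6 WD WT EV libraries. Every WD WT EV library was below every chow library. The difference was -1.12 ± 0.20 on the log2 scale (SE), or 0.459-fold, with an adjusted p of 0.00026 (limma). Over all 4 WD groups, 21 of 22 libraries lay below the lowest chow library, the exception being 1 WD LKO EV library at 27.7 CPM. Irs1, the other adaptor, had 56.7, 57.1 and 45.2 CPM in chow and 31.7 to 55.5 CPM (median 45.5) in WD WT EV. These overlapped, and the log2 difference of -0.34 ± 0.16 had an unadjusted p of 0.0468 and an adjusted p of 0.136.

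Pik3r1, which encodes the regulatory p85-alpha subunit of phosphatidylinositol 3-kinase, had 92.1, 86.5 and 71.8 CPM in chow and 117 to 152 CPM (median 125) in WD WT EV. All 22 WD libraries of any genotype or vector lay above all 3 chow libraries, the lowest of them at 105 CPM. The log2 difference was 0.56 ± 0.08, or 1.48-fold, with an adjusted p of 2.24e-05. Pik3ca, the gene for the p110-alpha catalytic subunit, had 40.3 ± 4.4 CPM in chow (SD, n = 3) and 41.8 ± 5.2 CPM on Western diet (SD, n = 6), and its log2 difference of 0.04 had a 95% interval from -0.16 to 0.24. The ratio of Pik3r1 to Pik3ca RPKM was 1.86 in chow and 2.77 in WD WT EV (antilog of the mean log2 ratio). The 1.49-fold difference had p = 0.0238 in an exact two-sided permutation test, and 0.179 after adjustment over the 15 ratio tests made. The smallest p that 3 against 6 libraries allow is 0.0119.

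Insr had 190, 206 and 204 CPM in chow and 145 to 188 CPM (median 168) in WD WT EV. The groups did not overlap, and the log2 difference was -0.25 ± 0.08, or 0.840-fold, with an adjusted p of 0.0243. Of the 22 WD libraries, 20 lay below the lowest chow library. The Insr call was kept in 9 of 21 alternatives. It was lost under the edgeR quasi-likelihood test (adjusted p = 0.125) and exact test (0.169), DESeq2 (0.0981), voom without quality weights (0.128), no filter (0.0757), 2 surrogate variables (0.11), the macrophage-marker score (0.11) and a fit to only the groups compared (0.0513). It was also lost without chow replicate 1 (adjusted p = 0.11) or 2 (0.26) and without WD WT EV replicate 1 (0.0602) or 4 (0.0536), with differences between -0.29 and -0.21.

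The kinase genes and Foxo1 gave no call. Akt1 had 42.9 ± 2.8 CPM in chow (SD, n = 3) and 42.9 ± 4.0 CPM on Western diet (SD, n = 6), with a 95% interval of the log2 difference from -0.15 to 0.16. Akt2, the main AKT isoform of insulin-responsive tissue, had 94.5 ± 3.0 and 99.7 ± 6.0 CPM, with an interval from -0.05 to 0.18. Foxo1 had 42.7 ± 1.9 and 44.96 ± 6.3 CPM, with an interval from -0.16 to 0.34. Igfbp1 had 24.5, 35.3 and 82.3 CPM in chow and 5.22 to 46.6 CPM (median 26.3) in WD WT EV. Its log2 difference of -0.51 ± 0.59 had an interval from -1.72 to 0.70, which spans a fall and a rise.

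**Figure D2:**
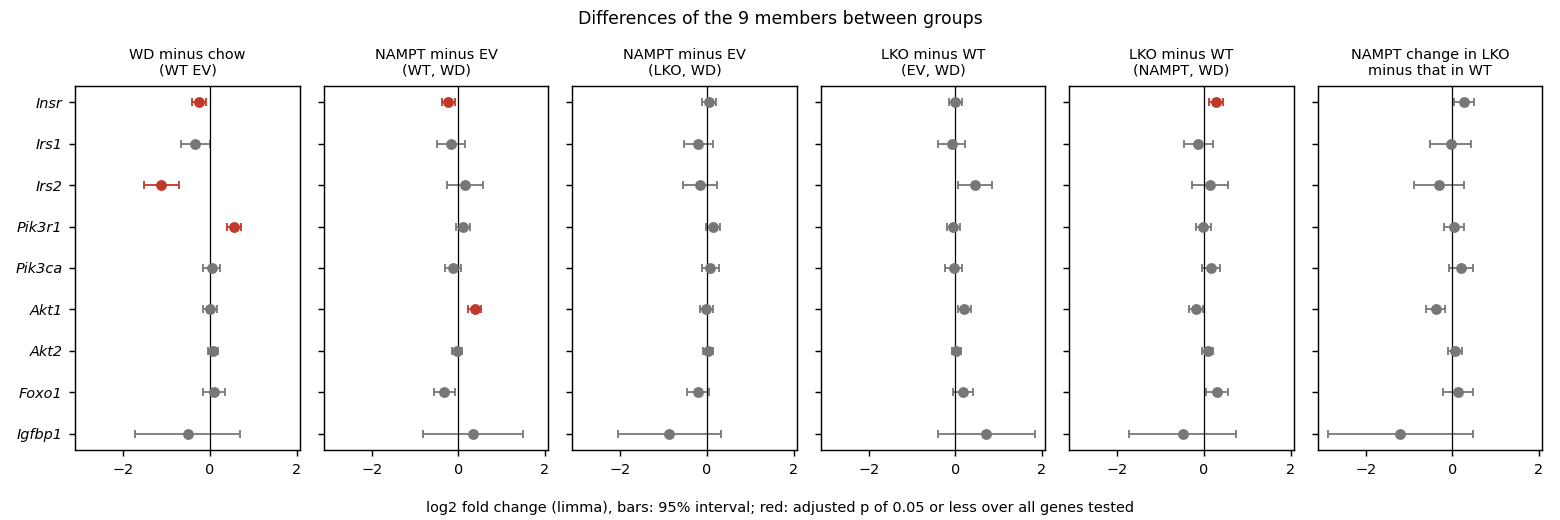
Log2 fold change of the 9 insulin signalling genes in each comparison (limma, second group minus first), with 95% intervals, and called genes in red. The intervals of Igfbp1 are wider than those of every other gene in all panels, and the called genes are Pik3r1, Irs2 and Insr with diet, Akt1 and Insr with NAMPT in WT, and Insr between genotypes under NAMPT.

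Cell type markers moved with diet too. All 6 macrophage markers were higher on Western diet, with Cd5l (63.3 to 121 CPM, adjusted p = 0.00144) and Cd68 (12.3 to 20.3 CPM, adjusted p = 0.0427) called. Of the 5 hepatocyte markers, Cps1 was called lower (6512 to 2973 CPM, adjusted p = 0.00117). Of the 5 sinusoidal endothelial markers, Lyve1 rose (8.69 to 17.3 CPM, adjusted p = 0.00825) and Kdr fell (77.98 to 66.8 CPM, adjusted p = 0.036). Of the 5 stellate cell markers, Lrat rose (30.5 to 46.5 CPM, adjusted p = 0.00175). Cd79b, 1 of 3 B cell markers tested (1.09 to 0.748 CPM, adjusted p = 0.0437), and Cela1, the 1 pancreatic acinar marker tested (27.5 to 15.8 CPM, adjusted p = 0.0031), fell. With the macrophage-marker score as a covariate, an alternative chosen after seeing the data, the log2 difference with diet was -1.03 for Irs2 (adjusted p = 0.00373) and 0.57 for Pik3r1 (0.000196). Insr was no longer called with it (-0.21, adjusted p = 0.11), and Igfbp1 was called lower (-1.82, adjusted p = 0.0357). The part of the other markers was not tested.

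Genes of the circadian clock moved with diet as well, and the hour of tissue collection and the feeding state are not given in the sources used here. Of 7 clock genes, 6 were called between chow WT EV and WD WT EV. Arntl fell from 34.1 to 12.1 CPM, and Dbp, a clock output gene, rose from 2.33 to 27.97 CPM (group means). The 3 chow libraries had 0.62, 1.25 and 5.13 CPM of Dbp, and the 22 WD libraries had 8.79 to 63.9 CPM. With a score over the 7 clock genes as a covariate, chosen after seeing the data, the log2 difference with diet was -1.93 for Irs2 (adjusted p = 2.47e-05), 0.65 for Pik3r1 (0.00114) and -0.57 for Insr (0.00078), and that of Irs1 turned to 0.12 (0.736). The score ran from -5.86 to -3.67 in chow and from -1.71 to 2.88 on Western diet, so diet and the clock score cannot be told apart over that gap.

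Within the WD groups, which were all fed the same diet, Dbp still differed between libraries. In WD WT EV, replicates 1, 2 and 4 had 14.1, 11.3 and 8.79 CPM of Dbp, and replicates 6, 7 and 8 had 36.4, 51.3 and 46.0 CPM. Irs2 in the same order was 10.6, 11.4 and 12.7 CPM, then 14.4, 17.6 and 16.95 CPM, so the 3 libraries high in Dbp were also the 3 high in Irs2. This order was not kept in WD WT NAMPT, where the library with the highest Irs2 level (18.3 CPM) had 45.6 CPM of Dbp and one with 52.0 CPM of Dbp had 12.5 CPM of Irs2. In WD LKO EV the 2 libraries lowest in Dbp had the 2 lowest Irs2 levels (9.42 and 18.1 CPM). In WD LKO NAMPT the 2 lowest in Dbp (27.8 and 21.9 CPM) also had the 2 lowest Irs2 levels (13.6 and 14.9 CPM). In WD WT EV, Igfbp1 ran the other way, with 43.1, 30.3 and 46.6 CPM in replicates 1, 2 and 4 and 22.4, 16.3 and 5.22 CPM in replicates 6, 7 and 8. In WD LKO EV, Dbp was 11.4, 15.5, 42.8, 53.9 and 62.1 CPM in replicates 1 to 5 and Igfbp1 was 61.9, 74.5, 35.1, 23.1 and 20.8 CPM, so the 2 libraries lowest in Dbp had the 2 highest Igfbp1 levels. In WD WT NAMPT the library lowest in Dbp (24.8 CPM) had the highest Igfbp1 level (114 CPM) and the library highest in Dbp (63.9 CPM) the lowest (2.96 CPM). WD LKO NAMPT did not show the order, since its library with 59.2 CPM of Dbp had its highest Igfbp1 level, 55.9 CPM. The chow libraries did not continue either pattern, since they had the lowest Dbp, Irs2 levels above those of 21 of the 22 WD libraries and Igfbp1 levels within the WD range. The exception for Irs2, WD LKO EV replicate 4 with 27.7 CPM, had 53.9 CPM of Dbp. In the order in which the samples are listed, the WD EV libraries low in Dbp, of both genotypes, come before those high in it. What this order reflects is not given in the sources used here. These are descriptions of single libraries, and a part of feeding or of the hour in them was not tested.

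**Figure D3:**
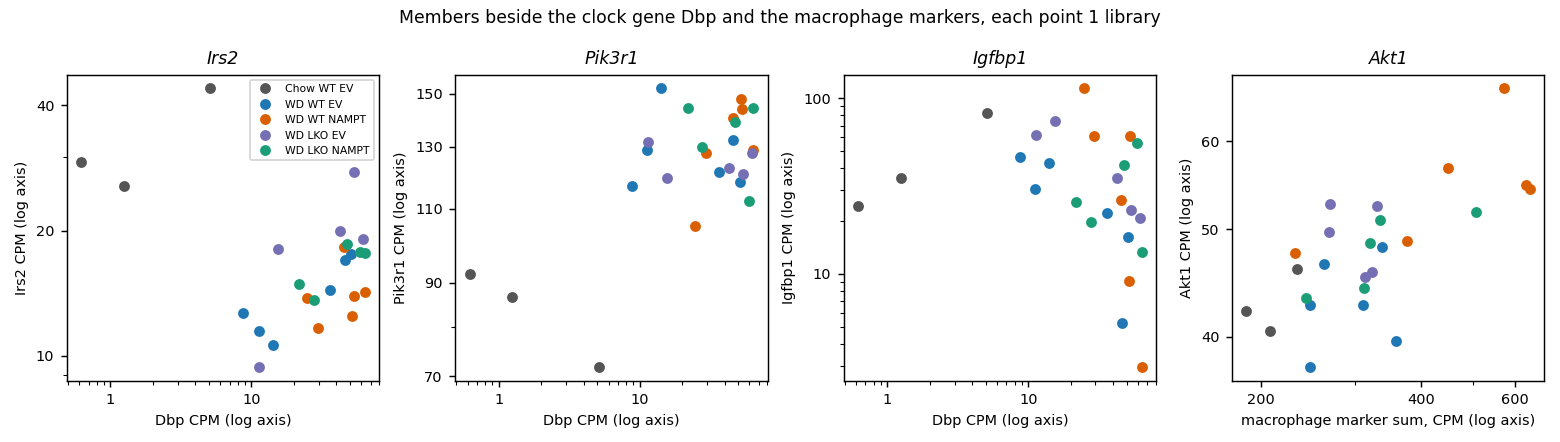
Irs2, Pik3r1 and Igfbp1 against the clock gene Dbp, and Akt1 against the summed CPM of 6 macrophage markers, 1 point per library, all axes logarithmic and in CPM. The 3 chow libraries lie apart at low Dbp (0.62 to 5.13 CPM), and the 4 highest Akt1 levels (54.3 to 66.9 CPM) belong to WD WT NAMPT libraries whose macrophage sum exceeds that of every WD WT EV library (358 CPM at most).

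The other genes of the pathway were taken from lists of 80 genes, of which 78 were tested. With diet, 18 of them rose and 5 fell, against 1414 and 1687 of all 14065 genes (22% called), and their median log2 difference was 0.12. The largest group shift was in the 4 genes that insulin induces, of which 3 rose (22% of all genes were called), with a median log2 difference of 1.45. Srebf1, the gene of the lipogenic transcription factor SREBP-1, rose from 250 to 884 CPM (log2 difference 1.63 ± 0.19, adjusted p = 1.79e-06). Pnpla3 rose from 0.718 to 11.2 CPM (4.53 ± 1.53, adjusted p = 0.0351).

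Among genes that act between the receptor and AKT, changes ran both ways. Rictor, the defining subunit of mTORC2, which phosphorylates AKT, fell by 0.60 ± 0.09 on the log2 scale (39.3 to 25.2 CPM, adjusted p = 5.39e-05), while Mtor itself rose by 0.41 ± 0.10 (adjusted p = 0.00529). Pik3cb, another catalytic subunit, rose by 0.42 ± 0.12 (adjusted p = 0.0142). Downstream of AKT, 4 of the 14 substrates and mTORC1 genes tested were called, all of them higher, against the 22% of all genes called. Among them were Gys2, liver glycogen synthase (0.60 ± 0.14, adjusted p = 0.00371), Gsk3a (0.35 ± 0.08, adjusted p = 0.00293) and Tsc2 (0.25 ± 0.06, adjusted p = 0.00647).

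Of the 10 FOXO1 target genes 3 were called with diet, against 22% of all genes. Sesn3 (0.47 ± 0.12, adjusted p = 0.00543) and Apoc3 rose and Pdk4, which restrains glucose oxidation, had a log2 difference of -1.29 ± 0.34 (adjusted p = 0.00873). The gluconeogenic genes were not called. Pck1 averaged 1132 CPM in chow and 962 CPM in WD WT EV, G6pc 395 and 335 CPM, and Ppargc1a, a coactivator of both, 14.1 and 9.68 CPM (unadjusted p = 0.046, adjusted p = 0.134). Of the other IGF-binding proteins, Igfbp2 (409 to 197 CPM) and Igfals fell, and Igfbp3 and Igfbp7 rose. Igf1r, Grb10, Grb14, Ptpn1 and Socs3 were not called with diet, with adjusted p from 0.091 to 0.766.

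NAMPT was examined next in WT mice on Western diet. Of the 9 genes, Akt1 rose and Insr fell, against 13.4% of all genes called. That share ranged from 0.94% without WD WT NAMPT replicate 3 to 20.2% without replicate 6. No gene of the 9 separated the 12 libraries without overlap, against 0.960% of all genes. Akt1 had 37.6 to 48.2 CPM (median 42.8) in WD WT EV and 47.6 to 66.9 CPM (median 54.5) in WD WT NAMPT. Of the 6 NAMPT libraries, 5 were above the highest EV library. The log2 difference was 0.37 ± 0.07, or 1.29-fold, with an adjusted p of 0.00759.

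Insr had 145 to 188 CPM (median 168) in WD WT EV and 113 to 160 CPM (median 144) in WD WT NAMPT, which overlapped. The log2 difference was -0.23 ± 0.08, or 0.851-fold, with an adjusted p of 0.042. Scaling by library size alone moved the median log2 difference of all genes to 0.16, at which Insr had -0.08 (adjusted p = 0.348), Akt1 0.51 (0.00779) and Pik3r1 0.27 (0.0318). The Insr call was kept in 5 of 24 alternatives. It was lost under the edgeR quasi-likelihood test (adjusted p = 0.104) and exact test (0.127), DESeq2 (0.0588), voom without quality weights (0.105), upper-quartile scaling (0.0693), no filter (0.0945), the replicate block (0.132), 2 surrogate variables (0.361), the macrophage-marker score (0.732) and a fit to only the groups compared (0.0819). It was also lost without each of WD WT EV replicates 2, 6, 7 and 8 and WD WT NAMPT replicates 1, 2, 3 and 4, with adjusted p from 0.0599 to 0.158. Foxo1 had 36.4 to 54.0 CPM (median 45.4) in EV and 28.1 to 40.02 CPM (median 37.3) in NAMPT. Its log2 difference of -0.33 ± 0.12 missed the threshold, with an adjusted p of 0.0597, and passed it in 3 of 24 alternatives, with the clock-gene score (0.0131) and without WD WT EV replicate 1 (0.0269) or 4 (0.0323).

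The remaining 6 genes had unadjusted p above 0.05. Irs2 had 13.95 ± 2.9 CPM (SD, n = 6) in EV and 14.06 ± 2.3 CPM (SD, n = 6) in NAMPT, and Irs1 43.9 ± 10.5 and 39.97 ± 7.8 CPM. Pik3r1 had 128 ± 13 and 132 ± 16 CPM, and Pik3ca 41.8 ± 5.2 and 39.8 ± 3.1 CPM. Akt2 had 99.7 ± 6.0 and 96.3 ± 5.9 CPM, with a 95% interval of the log2 difference from -0.15 to 0.07. Igfbp1 had 61.0, 114, 60.7, 26.4, 9.06 and 2.96 CPM in the 6 NAMPT libraries, which enclosed the whole EV range of 5.22 to 46.6 CPM, and its interval ran from -0.83 to 1.502.

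The ratio of the AKT genes was compared as well, and its difference was not called. The ratio of Akt2 to Akt1 RPKM was 1.34 in WD WT EV (antilog of the mean log2 ratio) and 1.01 in WD WT NAMPT, compared with 1.27 in chow, 1.18 in WD LKO EV and 1.20 in WD LKO NAMPT. The difference with NAMPT in WT was -0.40 on the log2 scale, or 0.757-fold, with an exact two-sided permutation p of 0.00866 and 0.13 after adjustment over 15 tests. The ratio of Irs2 to Irs1 RPKM was 0.729 in WD WT EV and 0.805 in WD WT NAMPT, against 1.38 in chow WT EV. The diet difference of -0.92 in this log2 ratio had an exact p of 0.0833 and 0.25 after adjustment. None of the 15 ratio tests passed after adjustment.

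**Figure D4:**
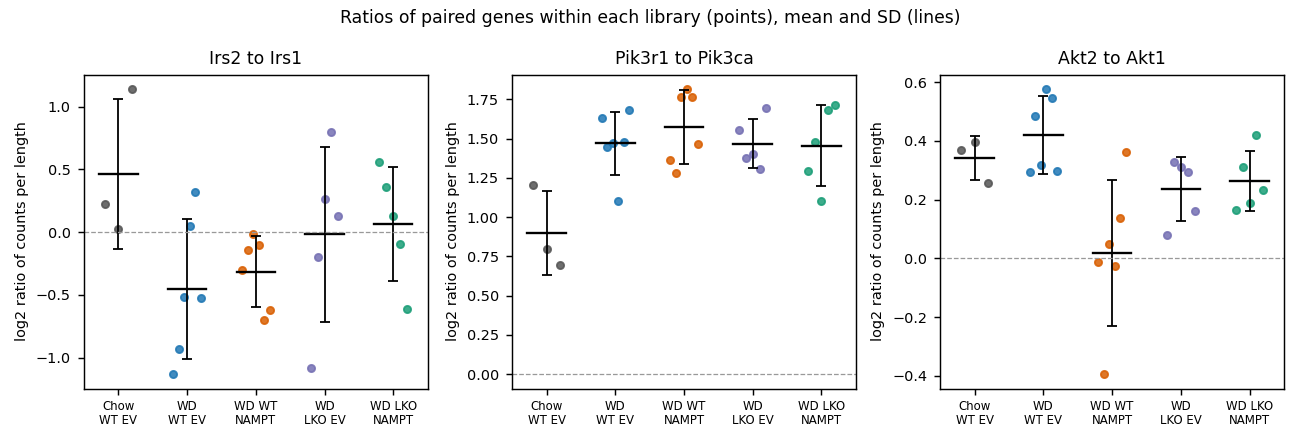
Ratios of Irs2 to Irs1, Pik3r1 to Pik3ca and Akt2 to Akt1 in each library, on a log2 axis, with the mean and SD of each of the 5 groups. Pik3r1 to Pik3ca is lowest in chow WT EV (1.86, antilog of the mean log2 ratio), and Akt2 to Akt1 is lowest in WD WT NAMPT (1.01).

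Macrophage markers moved in the same comparison. The summed CPM of 6 macrophage and Kupffer cell markers was 247 to 358 (median 287) in WD WT EV and 231 to 641 (median 511) in WD WT NAMPT, all 6 were higher in NAMPT, and 3 were called (Adgre1 from 26.8 to 53.6 CPM, Cd5l and Cd68). The sum was 188 to 233 in chow, 268 to 331 in WD LKO EV and 243 to 507 in WD LKO NAMPT. With a score over these markers as a covariate, chosen after seeing the data, the log2 difference of Akt1 was 0.30 with an unadjusted p of 0.00386, an adjusted p of 0.7 and 0 calls over all 14065 genes. The Akt1 call was also lost with 2 surrogate variables from sva (adjusted p = 0.0765), and it was kept in the other 22 of 24 alternatives. Of 5 neutrophil markers, 3 were tested, and S100a9 was called higher (1.53 to 4.73 CPM). Other markers and a clock gene moved in this comparison as well. Of the 7 clock genes 1 was called, Arntl, which fell from 12.1 to 3.47 CPM (-1.99 ± 0.44 on the log2 scale, adjusted p = 0.0119), while Dbp averaged 27.97 CPM in EV and 44.8 CPM in NAMPT (unadjusted p = 0.0124, adjusted p = 0.0716). With the clock-gene score as a covariate, under which 19.4% of all genes were called, the log2 difference was 0.37 for Akt1 (adjusted p = 0.00365), -0.31 for Insr (0.00417) and -0.43 for Foxo1 (0.0131). The stellate cell marker Des rose from 3.82 to 6.03 CPM (adjusted p = 0.0151), and of the sinusoidal endothelial markers Pecam1 rose from 21.4 to 25.9 CPM (adjusted p = 0.0304) and Clec4g fell from 49.2 to 40.5 CPM (adjusted p = 0.0179). The part of these cell type markers was not tested.

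In the pathway lists, 12 of 78 genes rose and 6 fell with NAMPT in WT, against 1079 and 811 of all genes (13.4% called), with a median log2 difference of 0.03. Of the 7 class I PI3K subunits, the 3 that rose were Pik3cg (2.22 to 4.62 CPM, 1.18 ± 0.23, adjusted p = 0.00759), Pik3cd (6.09 to 12.98 CPM, 1.13 ± 0.28, adjusted p = 0.0149) and Pik3r5 (1.77 to 5.57 CPM, 1.65 ± 0.39, adjusted p = 0.0128), which are subunits best known from leukocytes. Gab2, a scaffold adaptor, rose from 5.30 to 9.09 CPM (adjusted p = 0.0102), and Inpp5d, the haematopoietic lipid phosphatase SHIP1, from 7.77 to 13.2 CPM (adjusted p = 0.0211). All 5 rose in the comparison in which the macrophage markers rose. With the macrophage-marker score as a covariate, under which 0 of all 14065 genes were called, the log2 differences of these 5 were 0.74 (Pik3cg), 0.39 (Pik3cd), 0.80 (Pik3r5), 0.47 (Gab2) and 0.15 (Inpp5d).

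Of the 10 genes listed as receptor and IRS inhibitors or for insulin clearance, 4 rose, 2 fell and 4 were not called (Enpp1, Grb14, Ptprf and Socs3), against 13.4% of all genes called. Ptpn1, the phosphatase PTP1B (30.9 to 37.3 CPM, adjusted p = 0.0424), Grb10 (4.95 to 7.05 CPM, adjusted p = 0.0353), Socs1 and Prkcd rose. Ceacam1 (175 to 142 CPM, adjusted p = 0.0329) and Ide (131 to 103 CPM, adjusted p = 0.0378), both linked to insulin clearance, fell. With the macrophage-marker score, the log2 difference went from 1.05 to 0.26 for Socs1, 0.34 to 0.15 for Ptpn1, 0.67 to 0.38 for Prkcd and 0.50 to 0.46 for Grb10. It went from -0.54 to -0.41 for Ide and stayed at -0.37 for Ceacam1. With the clock-gene score (19.4% of all genes called), the calls of Ide (adjusted p = 0.133) and Ceacam1 (0.0505) were lost and those of the 4 that rose were kept. Of the 10 FOXO1 target genes 3 were called (against 13.4% of all genes), all of them lower, namely Mttp, which loads lipid onto lipoproteins (379 to 277 CPM, -0.45 ± 0.11, adjusted p = 0.0152), Ccng2 (-0.56 ± 0.17, adjusted p = 0.03) and Apoc3 (-0.33 ± 0.10, adjusted p = 0.034). Of the 4 insulin-induced genes none was called, with Srebf1 at 884 CPM in EV and 899 CPM in NAMPT. Pck1 (962 and 1043 CPM) and G6pc (335 and 266 CPM) were not called either. With the macrophage-marker score, the log2 difference was -0.15 for Mttp, -0.17 for Apoc3 and -0.66 for Ccng2, with 0 of all genes called.

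**Figure D5:**
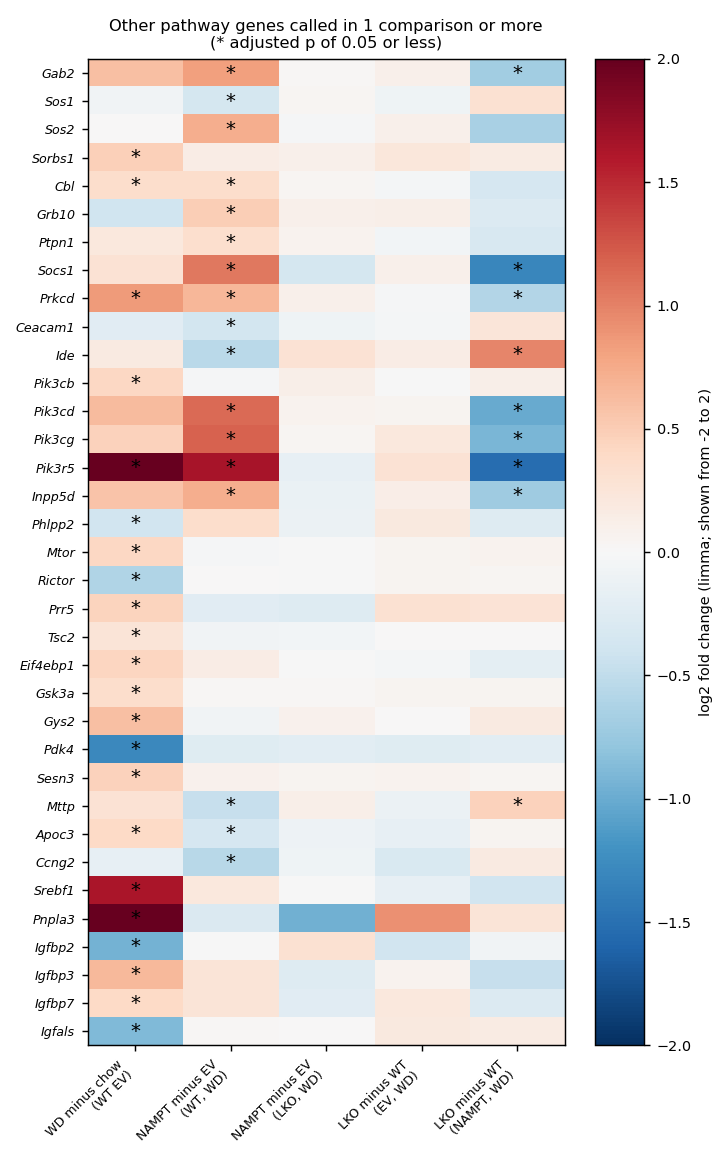
Heat map of log2 fold changes of 35 pathway genes called in at least 1 comparison, rows grouped by role, 1 column for each comparison of 2 groups, colours clipped at -2 and 2, asterisks for called genes (limma, adjusted p of 0.05 or less). Of the genes shown, 22 are called with diet, 17 with NAMPT in WT and 9 between genotypes under NAMPT, and the other columns hold none.

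In the mice labelled LKO, NAMPT changed none of the 9 genes by this test. The limma fit called 1 of all genes, or 0.00711%, none of the 9 had an unadjusted p under 0.05, and DESeq2 and both edgeR tests called none of the 9. The smallest p was that of Pik3r1, which had 132, 119, 123, 121 and 128 CPM in WD LKO EV and 112, 144, 139, 130 and 144 CPM in WD LKO NAMPT. The log2 difference was 0.14 ± 0.08 (unadjusted p = 0.0874, adjusted p = 0.594). Akt1 had 52.5, 45.3, 45.8, 49.7 and 52.7 CPM with EV and 51.8, 48.6, 43.4, 44.3 and 50.9 CPM with NAMPT, and its interval ran from -0.17 to 0.14, below the difference seen in WT. Insr had an interval from -0.12 to 0.20. Libraries overlapped in all 9 genes, against 1.15% of all genes without overlap. Of the 78 pathway genes, 0 were called and 4 had an unadjusted p under 0.05, as did 9.63% of all genes. All 4 cholangiocyte markers were lower with NAMPT, with 0 called. Among them was Epcam (1.69 to 0.785 CPM, unadjusted p = 0.00174 in limma). Of the 7 clock genes, Arntl and Per1 had an unadjusted p under 0.05 (0.0374 and 0.00208), both lower, with 0 called. The part of the cholangiocyte markers was not tested.

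Whether the NAMPT difference itself depended on the genotype label was tested by the interaction. None of the 9 genes was called, and the fit called 1 of all genes (0.00711%). The nearest was Akt1, at -0.38 ± 0.11 on the log2 scale (unadjusted p = 0.00125, adjusted p = 0.0774), followed by Insr at 0.27 ± 0.11 (unadjusted p = 0.0204, adjusted p = 0.162). The Akt1 interaction passed without WD WT NAMPT replicate 5 (adjusted p = 0.0417) or 6 (0.0403) and without WD LKO NAMPT replicate 1 (0.041), fits in which 2.6%, 4.53% and 4.82% of all genes were called. With the clock-gene score as a covariate, both passed, Akt1 at -0.41 (adjusted p = 0.0312) and Insr at 0.35 (0.0324), against 6.81% of all genes called in that fit. Of the 78 pathway genes, 0 were called and 21 had an unadjusted p under 0.05, as did 21.2% of all genes. The edgeR quasi-likelihood test also called none of the 9, and DESeq2 gave no adjusted p for any of them here.

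The genotype was compared under each vector. With the empty vector, none of the 9 genes was called, against 0.00711% of all genes. Akt1 was at 42.9 ± 4.0 CPM in WT (SD, n = 6) and at 49.2 ± 3.5 CPM in the libraries labelled LKO (SD, n = 5), a log2 difference of 0.20 ± 0.07 with an unadjusted p of 0.00884 and an adjusted p of 0.642. Irs2 was at 13.95 ± 2.9 CPM and, in the 5 libraries labelled LKO, at 9.42, 18.1, 20.0, 27.7 and 19.1 CPM, a difference of 0.45 ± 0.19 (unadjusted p = 0.026, adjusted p = 0.72). The first of these was the lowest Irs2 level of all 25 libraries. None of the 9 genes was free of overlap, against 0.590% of all genes. Of the 78 pathway genes 0 were called and 3 had an unadjusted p under 0.05, as did 6.33% of all genes, and DESeq2 and both edgeR tests called none of the 9.

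Under NAMPT, Insr was higher in the libraries labelled LKO, with 167, 178, 194, 163 and 169 CPM against 113 to 160 CPM (median 144) in WT. These groups did not overlap, which held for 1.39% of all genes, and 7.96% of all genes were called. That share was 0 without WD LKO NAMPT replicate 2 and 16.3% without WD WT NAMPT replicate 6. The log2 difference was 0.27 ± 0.08, or 1.21-fold, with an adjusted p of 0.0408. The call was kept in 5 of 23 alternatives. It was lost under every other test, scaling and filter run and with the replicate block, 2 surrogate variables, the macrophage-marker score or only the groups compared (adjusted p from 0.0549 to 0.361), and it held with the clock-gene score (0.0212). It was also lost without each of WD WT NAMPT replicates 1 to 4 and without WD LKO NAMPT replicates 2, 3 and 5, with adjusted p from 0.0679 to 0.233. Foxo1 had 43.4, 46.6, 58.1, 36.3 and 44.1 CPM in the libraries labelled LKO and 28.1 to 40.02 CPM in WT (0.30 ± 0.12, adjusted p = 0.113). Akt1 had a difference of -0.18 ± 0.08 (adjusted p = 0.124). The levels of Irs1, Irs2, Pik3r1, Pik3ca, Akt2 and Igfbp1 gave unadjusted p from 0.122 to 0.887.

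Under NAMPT, 3 of the 78 pathway genes were higher and 8 were lower with the LKO label than in WT, against 588 and 532 of all genes (7.96% called). Ide, an insulin-degrading protease, was at 178 CPM against 103 CPM (0.98 ± 0.18, adjusted p = 0.0123), and Mttp was higher too (0.45 ± 0.12, adjusted p = 0.0302). The lower genes included Pik3cg (-0.92 ± 0.22, adjusted p = 0.0227), Pik3r5, Pik3cd, Gab2, Inpp5d, Socs1 and Prkcd. The WD WT NAMPT libraries also enter the comparison of vectors in WT, where the log2 difference of Pik3cg was 1.18, so these values are not independent. All 6 macrophage markers were lower in this comparison too, with 0 called. All 4 haemoglobin genes were higher, as with the empty vector, with Hbb-bs called here (303 and 572 CPM). All 4 cholangiocyte markers were lower, with Sox9 called (10.6 CPM in WT and 5.21 CPM with the LKO label, -1.44 ± 0.38 on the log2 scale, adjusted p = 0.0282), and all 5 stellate cell, 3 neutrophil and 3 T cell markers tested were lower, with 0 called. The part of any of them in these differences was not tested beyond the macrophage-marker score. Pck1, G6pc, Ppargc1a, Igf1r, Socs3 and Grb14 were called in none of the 6 comparisons.

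The genes whose log2 CPM ran closest to each of the 9 over all 25 libraries are given as a description, since libraries share their groups and their depth. For Insr these were Akr1c13 (Pearson r = 0.94), Cyp4a32 (0.93) and Kng1 (0.93), and for Irs1 they were G6pc (0.81), Shroom1 (0.76) and Tuba4a (0.74). Irs2 ran closest to Rbm4b and Gm26584 (both 0.82) and to a feature without a symbol. Pik3r1 ran with Inhbe (0.89), 1810058I24Rik (0.86) and Pgm3 (0.85), and Pik3ca with Nckap1 (0.86), Ipo7 and Golph3 (both 0.85). Akt1 ran with Hmces (0.89), Crlf3 (0.85) and Csf2ra (0.84), and Akt2 with Pgpep1 (0.81), Pycrl (0.80) and Igfbp4 (0.78). Foxo1 ran with Zfp385b and Dnase2b (both 0.83) and Slc25a32 (0.82), and Igfbp1 with Zfp169 (0.83), Nipal1 and Orai2 (both 0.79). Among the 9 genes themselves, after each group mean was removed, Insr ran with Foxo1 (r = 0.84), the closest pair, and Pik3ca with Foxo1 (0.61). The most opposed pairs were Akt1 and Foxo1 (-0.57), Akt2 and Igfbp1 (-0.55) and Insr and Akt1 (-0.55).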

How the data were processed

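The authors isolated liver RNA with Trizol (RIN above a set minimum), selected poly-A RNA, sequenced single-end reads, aligned them with STAR to GRCm38 and counted unique, unambiguous reads per gene with featureCounts. The labels name STAR 2.5.1a and featureCounts 1.4.6-p5, and whether counting used the strand is not given in the sources used here. Each library has 1 deposited file with a raw count per gene. The CPM and RPKM columns beside it, which the authors derived from the counts, were recomputed without difference, so only counts and gene lengths were used further. In the labels, the treatment note gives SIRT1 as what the virus encoded, but the titles give NAMPT and were followed.

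Genes with more than 1 CPM in at least 2 libraries were kept and 4 ribosomal RNA genes were left out. TMM factors (edgeR 4.0.16) and voomWithQualityWeights (limma 3.58.1, R 4.3.3) were used as in the methods text of the study. All 25 libraries were in 1 fit, with 1 mean per group and no covariates. The legend of the study's figure on these data instead names the edgeR exact test, on fewer libraries per group, and that test was run here as an alternative. Quality weights ran from 0.336 (WD WT NAMPT replicate 6) to 2.50 (chow replicate 2), so a fitted difference can depart from that of the plain means. The CPM given are TMM-normalized, and SE are moderated. Log2 ratios used raw counts with a pseudocount of 0.5 counts, each divided by gene length, so no size factor enters them. Correlations used log2 CPM with a pseudocount of 0.5. Alternatives were edgeR's other tests, DESeq2 1.42.0, other scalings and filters, sva 3.50.0, the replicate number as a block, fits to the groups compared, and each library left out. Group medians were tried for the ratios. All 9 genes were given, with statistics where the unadjusted p was under 0.05 (otherwise for the smallest p), with up to 10 called pathway genes per comparison, further regulators by name, and the 3 nearest genes to each. Some pathway genes beyond those 10 are also named, chosen after their values were seen. Results for a few pathway genes are not reported here, although they count in the totals of the lists. The members and lists were chosen with earlier results of these data known.

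Simulated counts were used to test the procedure. They were drawn from a negative binomial distribution with a dispersion per gene, independently between genes and libraries. With 100 genes changed per size, all above a minimum expected count, the procedure recovered 82% of log2 differences of 1 and 23% of 0.5 for diet (13829 genes). For NAMPT in WT (13824 genes) it recovered 81% and 35%. Of the calls, 5.41% and 4.13% were false. Quality differences between libraries and shared shifts of clock genes or cell types were not simulated, so these rates may not hold for the real libraries. No 2 libraries of a group were copies (smallest chi-square per degree of freedom 13.75). Each library is labelled as a separate sample of 1 mouse. Replicate numbers are reused between groups for different mice.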

Additional observations from a re-analysis of the deposited data

Results flagged for a closer look

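A total of 48 sets of values (the 9 genes and the ratios in the groups of 4 to 10 libraries) were examined with Dixon's criterion for 1 value far from the others, and 2 passed it, where chance gives about 1 in 20. Akt2 in WD LKO NAMPT replicate 3 was at 86.08 CPM, below the other 4 libraries at 101.1 to 105.0 CPM, with a gap of 0.794 of the range against a limit of 0.71. Insr in WD WT NAMPT replicate 2 was at 113.0 CPM, below the other 5 at 143.0 to 160.4 CPM, with a gap of 0.634 against 0.625. The same WD WT NAMPT library had the highest Akt1 (66.9 CPM) and Igfbp1 (114 CPM) and the lowest Foxo1 (28.1 CPM) and Pik3r1 (105 CPM) levels of its group. Without it the Insr difference with NAMPT in WT was -0.20 on the log2 scale (adjusted p = 0.0969).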

How the results depend on the processing

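The fall of Irs2 and the rise of Pik3r1 with diet were called in all 21 alternatives run (adjusted p from 5.31e-06 to 0.00373 and from 1.52e-06 to 0.00256), Akt1 with NAMPT in WT in 22 of 24, and Insr in 9 of 21 with diet, 5 of 24 with NAMPT in WT and 5 of 23 between genotypes under NAMPT. With NAMPT in WT, 2 of the 9 genes were called as reported, 1 under the edgeR quasi-likelihood and exact tests, DESeq2, voom without quality weights, upper-quartile scaling, no filter, the replicate block and only the groups compared (1.37% to 12.9% of all genes called, against 13.4%), and 0 with 2 surrogate variables (0.469%) or the macrophage-marker score (0%). Between genotypes under NAMPT the 1 gene called became 0 under each of those and under library-size scaling (0% to 7.52% of all genes, against 7.96%), and in the interaction the clock-gene score, which changed the Irs1 difference with diet to 0.12, called 2 (6.81% of all genes, against 0.00711%). Pathway genes called with diet were 23, and 8 (quasi-likelihood), 11 (exact), 14 (DESeq2), 7 (voom without quality weights) and 15 (macrophage-marker score), where 9.4%, 10.4%, 12.4%, 8.54% and 16.6% of all genes were called. With NAMPT in WT they were 18, and 3 (quasi-likelihood), 9 (exact), 1 (voom without quality weights or 2 surrogate variables), 4 (no filter), 5 (replicate block), 6 (only the groups compared) and 0 (macrophage-marker score). Between genotypes under NAMPT they were 11, and 0 (quasi-likelihood, voom without quality weights, 2 surrogate variables, macrophage-marker score), 1 (exact, no filter, only the groups compared), 3 (DESeq2) and 6 (replicate block), and in the interaction 9 were called with the clock-gene score instead of 0. With the clock-gene score, 23 pathway genes were also called with diet, of which 13 were called in the main fit (20.7% of all genes called). With NAMPT in WT that score called 23, of which 15 were called in the main fit (19.4% of all genes called). DESeq2 gave no adjusted p for the 9 genes in the interaction. The cause of these differences was not tested. Library-size scaling also moved the median of all genes to -0.12 between genotypes under NAMPT and -0.15 in the interaction.

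Leaving out 1 library at a time called 2 to 3 of the 9 genes with diet (5.95% to 22.6% of all genes), 1 to 3 with NAMPT in WT (0.94% to 20.2%), 0 to 2 between genotypes under NAMPT (0% to 16.3%) and 0 to 1 in the interaction (0.00711% to 4.82%). For pathway genes the ranges were 5 to 23 with diet (5 without chow replicate 1 or 2), 2 to 23 with NAMPT in WT (2 without WD WT NAMPT replicate 3), 0 to 17 between genotypes under NAMPT (0 without WD LKO NAMPT replicate 2 or 5) and 0 to 8 in the interaction. The ratio differences with NAMPT in the libraries labelled LKO were near 0 and changed sign with group medians (-0.00527 for Irs2 to Irs1, 0.0777 for Pik3r1 to Pik3ca, -0.0615 for Akt2 to Akt1) and with single libraries left out (-0.18 to 0.29, -0.0757 to 0.0760 and -0.0102 to 0.0535), as did Pik3r1 to Pik3ca between genotypes under EV (-0.0761 to 0.0396). Akt2 to Akt1 with NAMPT in WT ran from -0.47 to -0.32, and passed at -0.47 without WD WT NAMPT replicate 6 (adjusted p = 0.0325). Libraries of the same replicate number correlated from -0.38 to 0.42 over the comparisons, after group means were removed. With 2 to 5 pairs per comparison, these values cannot settle whether the numbers pair mice or share a batch. The main fit used no pairing. The recovery of changes was simulated for diet and for NAMPT in WT, and not for the other 4 comparisons.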
